A study of Mus musculus with 3 samples.

Results

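The macrophages described here are lavage cells that carried transcripts of Ear2 or any of 4 other genes of resident alveolar macrophages. They carried none of the genes used here to mark a second, Krt19-marked resident state. They were selected on measured counts of unique molecular identifiers (UMIs, 1 per captured RNA molecule): Lyz2 had to make up at least 0.5% of a cell's UMIs, at least 2 UMIs had to come from Ear2, Car4, Krt79, Siglecf and Kcnn3 together, none from Htr2c, Lepr, Krt19, Wwtr1 and Prickle2, and at most 2 from the cycling genes Mki67, Top2a, Cenpf, Hmmr and Cdk1. This rule picked 7911 of 42888 kept cells. All mice had been given bleomycin, which damages alveoli and scars the lung, through the airway 14 days before lavage. The 3 groups were wild-type (WT) mice treated with GW5074, an inhibitor of the kinase c-Raf, Clec7a knockout (KO) mice with DMSO, the vehicle, and WT mice with DMSO. Clec7a encodes the beta-glucan receptor Dectin-1. Cells washed from the airspaces of a group's mice were combined and then gated on CD11b or CD11c, so every group was 1 library of 3' single-cell RNA sequencing from an unstated number of mice, and the gate itself used the products of Itgam (CD11b) and Itgax (CD11c). Strain, age, sex, the dose of GW5074 and the exons removed from Clec7a are not given in the sources used here.

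Resident alveolar macrophages settle in the airspace around birth, renew themselves there, and clear surfactant lipid and inhaled particles. GM-CSF and TGF-beta keep them in this state through the nuclear receptor PPAR-gamma, the product of Pparg. After injury, monocytes enter the airspace and turn into macrophages that make osteopontin (Spp1), complement C1q and Gpnmb, and that acquire resident genes over time. Ear2 belongs to the eosinophil-associated ribonucleases, which mouse alveolar macrophages also make, and Cav1 encodes caveolin-1, the coat protein of caveolae.

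The class comprised 3523 cells of the WT GW5074 library, 2650 of the KO library and 1738 of the WT DMSO library, with 11320634, 9312927 and 8500664 UMIs in sum and medians of 2937, 3392 and 4457 UMIs per cell. The median mitochondrial share of its cells was 2.55%, 2.49% and 2.04%. Libraries shared few cell barcodes, 80 to 154 per pair overall and 1 to 6 within the class. Since there was 1 library per group, no test between groups was possible, and groups cannot be told apart from pools or runs. Levels are in CPM, a gene's UMIs scaled to the summed UMIs of the class in that library, and a gene is called higher or lower where the ratio of 2 libraries was at least 1.5-fold and its 95% interval excluded 1. All intervals cover counting error only. Ratios were taken for 8127 genes with a mean of at least 10 CPM. In pooled lavage, fewer transcripts per cell and fewer cells with the transcript cannot be told apart from a summed level alone.

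The targeted gene checked the labels. Clec7a (ENSMUSG00000079293; mm10 chromosome 6, 129461591 to 129472779, minus strand) was at 885 CPM in WT GW5074, 14.5 CPM in KO and 804 CPM in WT DMSO cells of the class. A Clec7a UMI was found in 84.4% (83.1 to 85.5) of WT GW5074 cells, 4.79% (4.01 to 5.68) of KO cells and 88.1% (86.5 to 89.6) of WT DMSO cells. T cells, which should lack the gene, had one in 8.19%, 0% (0 of 258 cells, which by a floor of 3 counts allows a share of up to 1.16%) and 10.7%, at median depths of 807, 1105 and 1364 UMIs. With every cell thinned to 1000 UMIs the class stood at 54.2%, 1.3% and 51.6%, and T cells at 10.3%, 0% and 5.81%, after 60, 29 and 15 shallower class cells and 154, 97 and 95 T cells were left out. A 3' tag does not show which exons were removed.

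Transcripts of neutrophils were present in cells of the WT DMSO library, T cells included. Free RNA and doublets were not told apart. S100a8 and S100a9, abundant neutrophil transcripts, were at 282 and 66.6 CPM in WT GW5074, 296 and 28.8 CPM in KO, and 1335 and 706 CPM in WT DMSO cells of the class. T cells of the same libraries had 221 and 92.1, 105 and 44.4, and 1347 and 808 CPM. The 15 neutrophil genes summed to 452, 418 and 2335 CPM in the class, with 14 of the 15 detected in each library and Ngp, Ly6g or Camp at 0. In the WT DMSO library the class and T cells thus held similar levels of these transcripts. Dendritic cell genes, 12 in all, summed to 202, 161 and 253 CPM in the class and to 1328, 1463 and 2422 CPM in all other cells, and B cell genes to 4.42, 4.3 and 15.4 CPM in the class. The part of these transcripts in the results below was not tested. Values without cells of other-lineage UMIs leave out every member with a UMI of a neutrophil, T cell, B cell or dendritic cell gene.

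**Figure D1:**
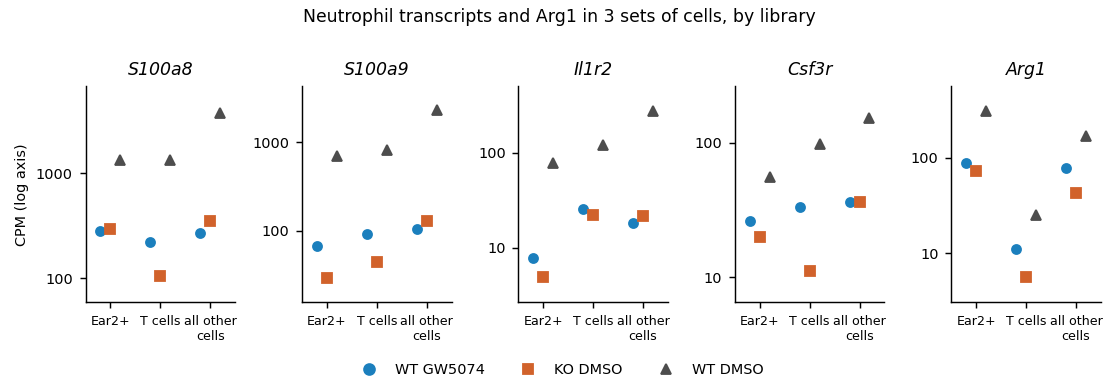
Level in CPM (log axis) of 4 neutrophil genes and of Arg1 in Ear2+ macrophages, T cells and all other kept cells, 1 point per library. In WT DMSO, S100a8 was at 1335 CPM in Ear2+ macrophages and 1347 CPM in T cells, whereas Arg1 was at 309 CPM in Ear2+ macrophages and 25.1 CPM in T cells.

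The working name of the class, resident alveolar macrophages marked by Cav1 and Ear2, was borne out only in part. Ear2 (ENSMUSG00000072596; mm10 chromosome 14, 44102654 to 44103534, plus strand) was found in 90%, 93.7% and 96% of members in WT GW5074, KO and WT DMSO, and gave 67.4%, 71% and 73.4% of the UMIs that met the rule. Ear2 was the sole gene behind 43.7%, 45.7% and 44.2% of members. Kcnn3, a calcium-activated potassium channel, was found in 40.3%, 42.6% and 40.6%, Car4, carbonic anhydrase 4, in 23%, 16.4% and 20%, the sialic acid-binding lectin Siglecf in 9.68%, 7.89% and 12.3%, and the keratin Krt79 in 2.3%, 2.83% and 1.27%. These 5 genes chose the cells, so their levels are a description. Ear genes are near-identical copies in a cluster on chromosome 14, and reads could have been split among them: Ear1 was at 29.4, 44 and 44.7 CPM, and Ear6 at 2.74, 2.79 and 6.71 CPM. Of the markers of eosinophils, which share Ear genes and Siglecf, Epx, Prg2, Ccr3, Prg3 and Gata1 were at 0 in all 3 libraries of the class, and Il5ra and Alox15 were at 0.0883 CPM in WT GW5074 and at 0 in KO and WT DMSO. Cd244a, the remaining gene of that list, was at 62, 49.5 and 61.3 CPM in the class and at 55.3, 44.4 and 32.9 CPM in T cells.

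Cav1, which the rule did not use, did not set the class apart from Krt19-state cells. It was at 49.4 CPM (45.4 to 53.6) in WT GW5074, 65.9 CPM in KO and 41.2 CPM in WT DMSO cells. Krt19-state cells, which passed the same rule but held at least 2 UMIs of the Krt19 set, had 40.1, 46.3 and 34.6 CPM. Monocyte-derived cells, with Lyz2, none of the 5 resident genes and at least 2 UMIs of Fstl1, Gpnmb, Mmp12, Cx3cr1 and Ms4a7, had 26.4, 25.9 and 21.9 CPM, and the class was higher than these by the rule in all 3 libraries. A Cav1 UMI was seen in 12.7%, 17.2% and 14.2% of members, and in 0.862%, 0% (0 of 258, up to 1.16% by the same floor) and 0.298% of T cells. Its partner Cav2 was at 49.7, 47.1 and 50.3 CPM. Of the cavins, which build caveolae, Cavin1 had 2, 1 and 2 UMIs in the whole class and Cavin3 had 0.

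Other markers placed the class between both neighbours. Chil3, a chitinase-like protein of alveolar macrophages, was at 2129, 2297 and 2260 CPM in the class, at 5829, 6628 and 7176 CPM in Krt19-state cells and at 504, 522 and 1333 CPM in monocyte-derived cells of WT GW5074, KO and WT DMSO. Plet1 and Pparg lay between the neighbours in the same order, with Plet1 at 453, 452 and 347 CPM and Pparg at 196, 249 and 152 CPM in the class. Among markers of mature alveolar macrophages, some were far below their level in Krt19-state cells and others near it. The scavenger receptor Marco was at 24.9, 15.9 and 21.8 CPM, against 311, 214 and 427 CPM in Krt19-state cells. Cidec, a lipid droplet protein, and Fabp1, a fatty acid-binding protein, were at 12.9, 16.4 and 6.59 CPM and at 7.77, 12.7 and 7.29 CPM, each lower than in Krt19-state cells of every library. Lipoprotein lipase (Lpl) was instead at 1371, 980 and 1354 CPM, against 1308, 1034 and 1533 CPM in Krt19-state cells, and the integrin Itgax, used in the sort, at 390, 334 and 321 CPM, against 298, 267 and 315 CPM. Spp1 stood near its level in monocyte-derived cells, at 8392, 7774 and 9498 CPM against 9065, 7505 and 9809 CPM, while C1qa reached 360, 348 and 395 CPM against 1237, 1423 and 1162 CPM. At least 2 UMIs of the monocyte-derived genes were held by 41%, 39.8% and 46% of members. The cells are therefore called Ear2+ macrophages here, after the gene that chose most of them. Ear2 does not set them apart from Krt19-state cells, with 791, 871 and 797 CPM in the class and 683, 913 and 617 CPM in that state.

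**Figure D2:**
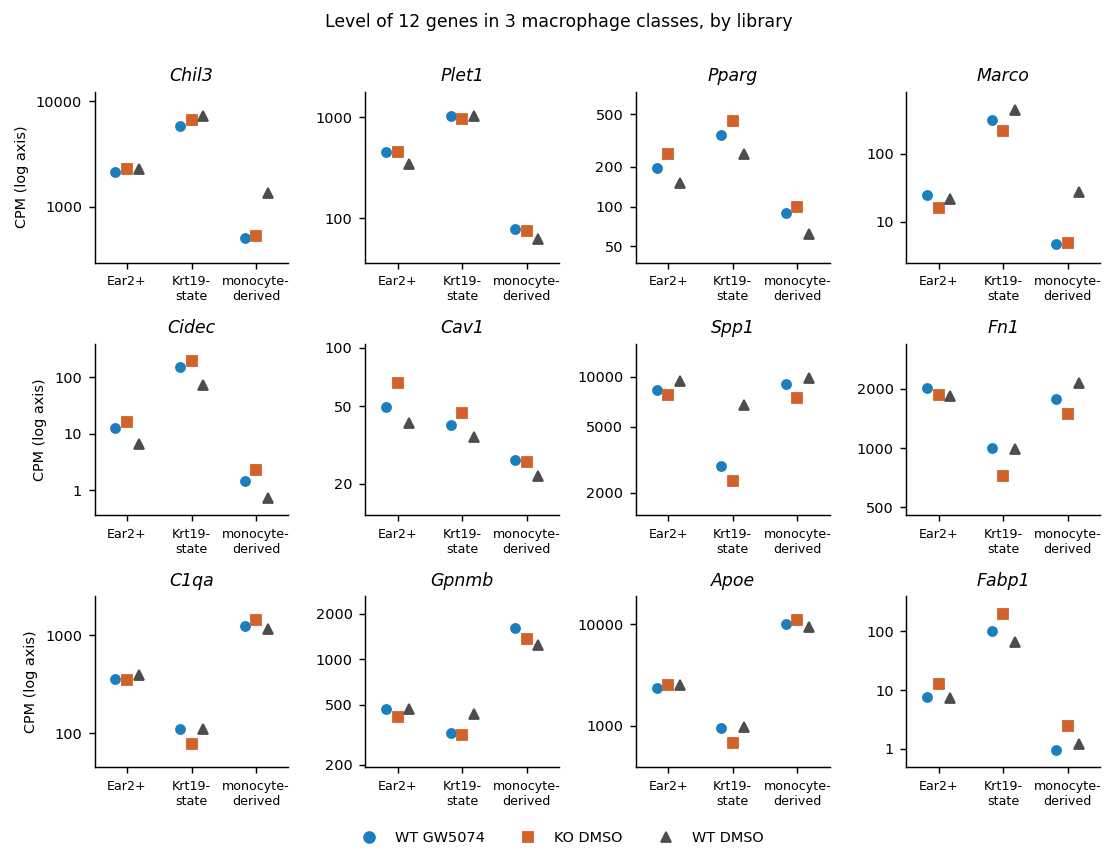
Level in CPM (log axis) of 12 genes in Ear2+ macrophages, Krt19-state cells and monocyte-derived cells, with 1 point per library. Chil3, Plet1 and Pparg lay between both neighbours in every library, Marco and Cidec were high in Krt19-state cells, and Spp1 in Ear2+ cells lay near its level in monocyte-derived cells. Gpnmb helped to choose the monocyte-derived cells.

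Levels of other genes changed gradually across the boundary of the class. Such group sums cannot tell a graded population from separate ones mixed by sparse counts, and this was not tested. Among cells that met every other criterion, those with 1 UMI of the 5 genes, just outside, had 1265, 1257 and 1751 CPM of Chil3 and 653, 822 and 795 CPM of C1qa in WT GW5074, KO and WT DMSO. Those with 2, just inside, had 1607, 1812 and 1885 CPM of Chil3 and 491, 472 and 530 CPM of C1qa. Members with 6 or more had 2645, 2796 and 2540 CPM of Chil3 and 227, 217 and 332 CPM of C1qa. Cells that held 1 UMI of the Krt19 set, just outside at that end, stood apart more, with 4959, 5283 and 5228 CPM of Chil3 and 198, 139 and 314 CPM of Marco.

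The graded levels were present at equal depth too, under the same limit. After thinning to 1000 UMIs, cells were grouped by how many of these came from the 5 genes. With 0, 1, 2 and 3 or more such UMIs, Plet1 was at 156, 379, 554 and 739 CPM in WT GW5074, at 183, 402, 516 and 670 CPM in KO and at 132, 364, 491 and 554 CPM in WT DMSO. C1qa was at 891, 421, 280 and 144 CPM in WT GW5074, at 951, 396, 294 and 160 CPM in KO and at 782, 443, 189 and 174 CPM in WT DMSO. Plet1 thus stood higher and C1qa lower with each step in every library. Gpnmb and the elastase gene Mmp12 took the course of C1qa, and Ear1 that of Plet1. Reads of Ear1 could have been split with the selecting gene Ear2, so its course is not independent of the grouping. Chil3 was lower at 2 than at 1 UMI in WT DMSO (2391 and 2539 CPM), and Pparg was lower at 3 or more than at 2 there (161 and 166 CPM). Spp1 did not follow, at 7772, 7582, 7319 and 7372 CPM in WT GW5074 and 7568, 8811, 9094 and 8318 CPM in WT DMSO. Fn1, fibronectin, was level as well, at 2134 and 2018 CPM in the lowest and highest group of WT GW5074.

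**Figure D3:**
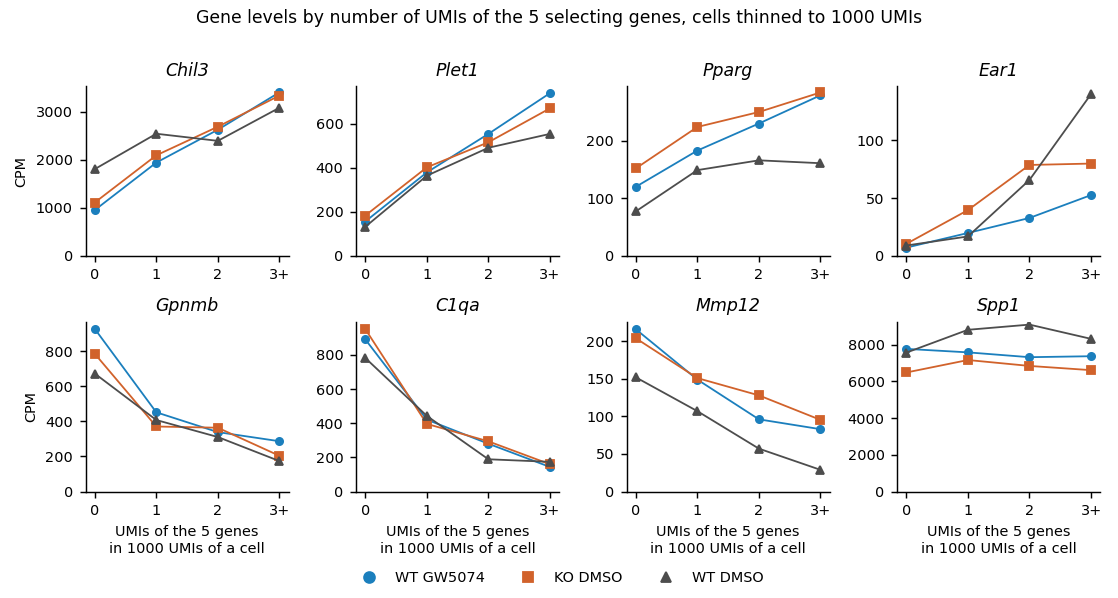
Level in CPM of 8 genes against the number of UMIs of the 5 selecting genes among 1000 UMIs of a cell, 1 line per library. Plet1 and Ear1 climbed and Gpnmb, C1qa and Mmp12 dropped along the axis in all 3 libraries, while Spp1 stayed between 6486 and 9094 CPM. Reads of Ear1 could have been split with Ear2, a selecting gene.

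Set against Krt19-state cells within each library, 174 of 8157 genes (2.13%) were higher in Ear2+ macrophages by the rule in all 3 libraries and 231 (2.83%) lower. Both sets of cells were cut from the same counts, so these differences describe the cut and are no test. Blnk, an adaptor of B cell receptor signalling, was at 51.9 against 10.1 CPM in WT GW5074, 36.2 against 3.68 CPM in KO and 52.8 against 5.32 CPM in WT DMSO. The protein kinase C gene Prkcb was at 158 against 36.2, 120 against 16.5 and 152 against 29.2 CPM, and the membrane-bound protease gene Mmp14 at 197 against 57.4, 153 against 36.4 and 166 against 41.2 CPM. Rai14, the adaptor Lat2, the calcium channel gene Cacna1d, the lactate dehydrogenase gene Ldhb, Apbb2, the transcription factor Mef2c and the receptor Slamf7 completed the 10 with the widest gap. Marco, Patj, Tc2n, Cidec, Fabp1, Wfdc10, Cpne5, Vstm2a, Celf4 and Kcnip4 were lowest, and Kcnip4, a protein that binds potassium channels, was at 358 against 2697, 271 against 3006 and 139 against 2168 CPM. Of 8 class II antigen presentation genes 6 were higher (median log2 ratio 1.48, against -0.08 for all genes), as were 5 of 14 complement genes and, without the genes that chose either class, 6 of 23 profibrotic genes (2 lower) and 5 of 13 chemokine genes. Of the alveolar macrophage identity genes, 7 had chosen the cells and were left out of the count, a step taken after the values were seen. Of the other 26 measured, 14 were lower and 0 higher (median -0.86).

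Against monocyte-derived cells, 225 of 8142 genes (2.76%) were higher and 192 (2.36%) lower in all 3 libraries, again as a description. The higher genes included Plet1, at 453 against 79, 452 against 75.3 and 347 against 62.9 CPM in WT GW5074, KO and WT DMSO, the secreted protein gene Wfdc21, at 1034 against 200, 932 against 174 and 828 against 235 CPM, and the formyl peptide receptor Fpr1, at 60.9 against 8.7, 97.5 against 16.8 and 53.2 against 9.75 CPM. Ear1, the RNA-editing enzyme Adarb1, Flvcr2, Gmpr, Cpne8, the cytokine Il18 and the lectin Clec4b1 were the others. Ear1 is a near copy of Ear2, which the monocyte-derived cells lacked by their rule. Lower were thrombospondin 1 (Thbs1), at 7.69 against 56.9, 4.94 against 38.1 and 19.5 against 117 CPM, the monocyte chemoattractant Ccl2, the transcription factor Maf, the metal transporter Slc11a1, the complement receptor C3ar1, Itgam, Apoc2, Olfml3, St18 and Rnf150. Again without the genes that chose the cells, identity genes were higher in 16 of 25 cases and lower in 1 (median 1.05, against 0.05 for all genes), and profibrotic genes lower in 9 of 25 and higher in 1.

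Members also differed among themselves. At 1000 UMIs per cell, the variance of a gene's UMIs over its mean, which is 1 for pure counting, had a median of 1.02 over 3456 genes in each library. The ferritin genes Fth1, at 7.94, 7.83 and 8.81 in WT GW5074, KO and WT DMSO, and Ftl1 led. The chemokine Ccl17 was at 4.41, 4.67 and 5.14. It was found in 4.42%, 5.04% and 5.92% of cells, below its share in T cells thinned alike (23.1%, 7.45% and 7.88%). T cells also held more dendritic cell transcripts than the class (1220, 496 and 1117 CPM in sum, against 202, 161 and 253 CPM). The source of Ccl17 in the class was not tested. Ccl5 was in 3.61%, 5.38% and 5.57% of members and 30.8%, 31.7% and 37.8% of T cells. Kcnip4 was at 4.14, 5.2 and 3.13 and was seen in 16.5%, 11.3% and 8.88% of cells, and in 5.13%, 0% (0 of 161, with an exact upper limit of 2.27%) and 1.24% of T cells. Cd74, the invariant chain of class II presentation, was at 4.34, 6.52 and 4.67, and Chil3 at 3.97, 3.89 and 6.33. H2-Ab1, the metallothionein Mt1, Ccl6, Fabp5, Wfdc17, Cst3, Actb and Malat1 completed the 15 most variable of the genes ranked. Genes left out of the named genes, such as the selecting genes and other cell types' markers, Spp1 included, were not ranked. Values were not adjusted for abundance: Fth1, Ftl1, Actb and Malat1 averaged 18.5, 11.7, 8.91 and 8.58 UMIs per thinned cell in WT GW5074.

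Ear2+ macrophages made up 19.8% (19.2 to 20.4) of kept cells in WT GW5074, 22.8% (22 to 23.5) in KO and 12.9% (12.4 to 13.5) in WT DMSO, 1.53-fold and 1.76-fold above WT DMSO. Both ratios turned with the denominator, to log2 ratios of -0.43 and -0.19: of cells with Lyz2 at or above 0.5% of UMIs, the class made up 27.9%, 33% and 37.7%. With the rule applied at 1000 UMIs per cell, shares were 9.92%, 11% and 6.83% of the cells deep enough.

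With GW5074, Ear2+ macrophages held less Arg1 and more Kcnip4 than with DMSO. In the lists of immediate early, inflammatory and glucocorticoid-induced genes, 7 of 25, 5 of 22 and 5 of 16 members were lower. Fewer were lower without cells of other-lineage UMIs, a filter that itself takes out Il1r2 and Lcn2 of the last list. Of 8127 genes 36 (0.443%) were higher and 69 (0.849%) lower than in WT DMSO. Arg1 (ENSMUSG00000019987; mm10 chromosome 10, 24915221 to 24927484, minus strand), the arginase that competes with nitric oxide synthase for arginine, was at 88.9 CPM (83.5 to 94.5) in WT GW5074 and 309 CPM (297 to 321) in WT DMSO, a log2 ratio of -1.80 (-1.90 to -1.69). It was lower in both neighbouring classes too, at 18.3 against 128 CPM in Krt19-state cells and 119 against 463 CPM in monocyte-derived cells. T cells had 11.1 and 25.1 CPM, far under the level of the class, and the ratio was -0.86 without cells that held UMIs of other lineages.

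The other 11 lower genes named by the rule were all more abundant outside the class in WT DMSO. Ier3, an early response gene of ERK signalling, was at 20.8 against 70.5 CPM in the class and 34.9 against 182 CPM in all other cells, and Egr1, another, at 17.5 against 50.7 CPM and 54.9 against 187 CPM. The neutrophil-attracting chemokine Cxcl2 was at 11.8 against 31.2 CPM, the granule proteoglycan serglycin (Srgn) at 149 against 361 CPM, and Id1, an inhibitor of helix-loop-helix factors, at 15.4 against 35.8 CPM. Fkbp5, a steroid receptor co-chaperone, was at 48.8 against 104 CPM, Dusp1, a phosphatase of MAP kinases, at 32.8 against 68.5 CPM, and Klhl6, a ubiquitin ligase adaptor, at 63.2 against 130 CPM. Mxd1, Nfkbiz and the cold-induced Rbm3 had log2 ratios of -0.89, -0.89 and -0.88. Leaving out cells that held UMIs of other lineages kept 1361 WT GW5074 and 185 WT DMSO members. None of these 11 genes passed the rule there (log2 ratios of -0.96 to 0.63), and Cxcl2 (0.60) and Id1 (0.63) changed sign. Egr1 (-0.96), Ier3 (-0.66) and Mxd1 (-0.66) were still past 1.5-fold, and fell short because their intervals included 1.

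Higher genes with GW5074 were led by Kcnip4, at 358 against 139 CPM (log2 ratio 1.36, 1.27 to 1.46). Mamdc2 was at 38.8 against 18.1 CPM, the mitochondrial leucyl-tRNA synthetase Lars2 at 132 against 66.9 CPM, cholesterol 25-hydroxylase (Ch25h) at 30.4 against 16.5 CPM and the adhesion molecule Cd2 at 39.5 against 21.4 CPM. Krt19-state cells had more of Kcnip4, Mamdc2, Ch25h, Cd2, Pdlim1, Flt1, Fam78b, Gstm1 and Tppp3 than the class did in WT GW5074, for instance 129 CPM of Cd2 and 221 CPM of the VEGF receptor Flt1, and that state made up 4.19% of kept cells in WT GW5074 and 1.29% in WT DMSO. Marco, also high in that state, was at 24.9 and 21.8 CPM in the class and did not pass the rule. Cidec, high there too, was at 12.9 and 6.59 CPM in the class and did pass. The part of that state in these differences was not tested. Flt1, the glutathione transferase Gstm1, the cytoskeletal genes Pdlim1 and Tppp3, Dcakd, Fam78b and the splicing gene Lsm3 had log2 ratios of 0.60 to 0.65, near the threshold. Kcnip4, Lars2, Cd2 and Gstm1 passed the rule in all 10 alternative settings. Settings that change only the minimum level repeat the main ratio and could not fail. Without cells of other-lineage UMIs, 7 of the 12 fell short, with 185 WT DMSO members left. Their log2 ratios there were 0.14 to 1.07, and those of Lsm3 (1.07), Tppp3 (0.55) and Pdlim1 (0.51) fell short with ratios near or above their main ones.

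By list, 7 of 25 immediate early genes were lower with GW5074 and 0 higher, with a median log2 ratio of -0.42 against -0.01 for all genes. Besides Ier3, Egr1 and Dusp1 these were Klf2 (11 against 25.6 CPM), Nr4a1, Fosb and Jun (57.2 against 88.5 CPM). Egr2, in the same list, was at 35.8 against 27.8 CPM and did not pass the rule. Of 14 MEK-ERK targets, genes switched on by the kinase cascade downstream of Raf, 3 were lower (Ier3, Egr1 and Fosb, all shared with the immediate early list; median -0.30). Of 16 glucocorticoid-induced genes 5 were lower and 0 higher (median -0.34): Fkbp5, Dusp1, Klf9, the decoy receptor Il1r2 and Lcn2. Lcn2 at 0.53 against 30.5 CPM and Il1r2 at 7.69 against 78.1 CPM are themselves made by neutrophils. Inflammatory genes were lower in 5 of 22 cases (median -0.18), with interleukin 1 beta (Il1b) at 81.7 against 140 CPM, Tnfaip3 at 18.5 against 33.1 CPM and Ccl3 at 14.2 against 22.8 CPM. Without cells of other-lineage UMIs, 2 immediate early, 0 MEK-ERK, 1 glucocorticoid-induced and 1 inflammatory gene were lower. Il1r2 and Lcn2 are among the neutrophil genes of that filter, which leaves no UMI of them, so they could not pass there.

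Of 30 identity genes of alveolar macrophages measured, 3 were higher and 2 lower with GW5074 (median log2 ratio 0.18, against -0.01 for all genes). The 30 include the selecting genes Ear2, Car4, Siglecf and Kcnn3, which did not pass the rule but enter the median. Over all 8127 genes the shares were 0.443% higher and 0.849% lower. Cidec (12.9 against 6.59 CPM), Cd2 and Flt1 were higher. The fatty acid-binding protein gene Fabp4 (201 against 351 CPM) and Ear1 (29.4 against 44.7 CPM) were lower. Without cells of other-lineage UMIs, 4 identity genes were higher and 0 lower. Among profibrotic genes Arg1 and Thbs1 (7.69 against 19.5 CPM) were lower and 25 of 27 did not pass, Spp1 at 8392 against 9498 CPM among them. Neither list of Dectin-1 signalling (33 genes) nor of MHC class II (9 genes), lysosomal (40 genes) or cholesterol synthesis genes (23 genes) had a member past the rule. At the shares over all genes given above, lists of this size without such a member do not stand out.

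**Figure D4:**
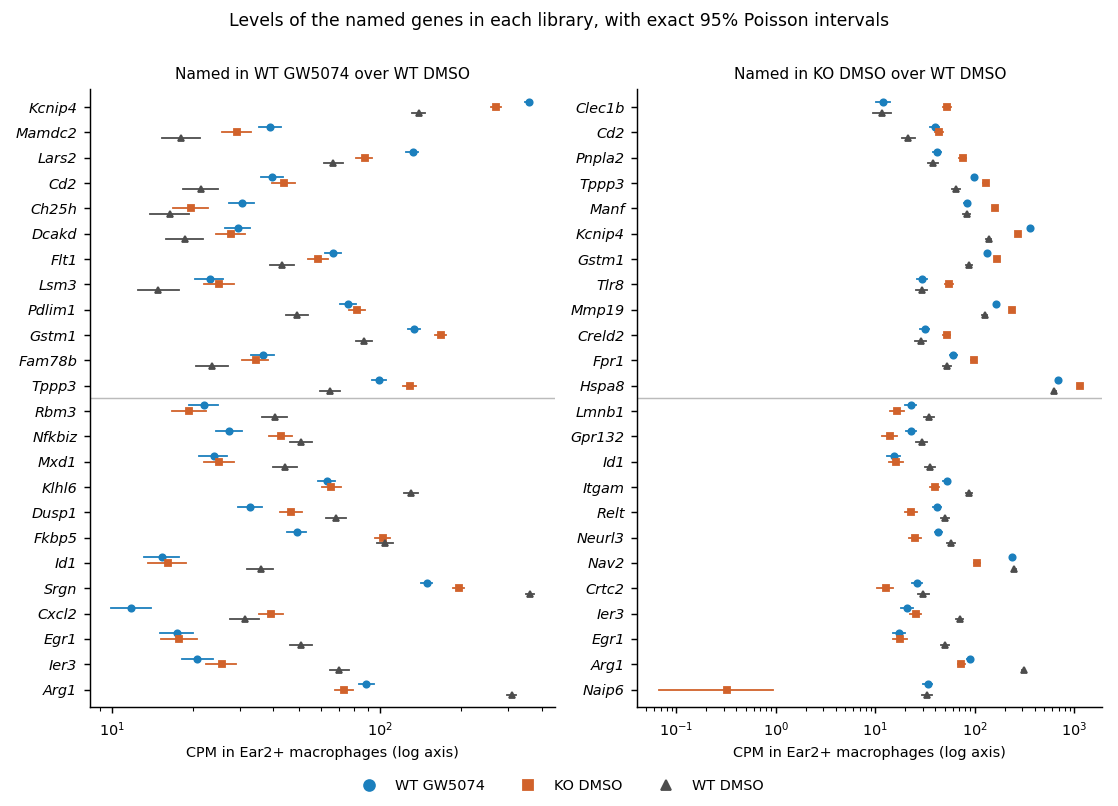
Level in CPM (log axis) of the genes named by the rule in each library, with exact 95% Poisson intervals. Genes above the grey line were higher and genes below it lower than in WT DMSO. Arg1 was at 88.9 CPM in WT GW5074, 73.3 CPM in KO and 309 CPM in WT DMSO, and Naip6 was at 0.322 CPM in KO.

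Loss of Clec7a went with more differences than GW5074 did: 116 of 8127 genes (1.43%) were higher and 301 (3.7%) lower in KO than in WT DMSO Ear2+ macrophages. The split depended on scaling, with 176 higher and 193 lower under median-of-ratios scaling and 163 and 198 under TMM. KO cells held more of the chaperones Hspa5 and Hspa8, more Clec1b, Olr1 and Pparg, and less Naip6, Arg1, Nav2 and Crtc2. Both comparisons share the WT DMSO library, so values are given side by side and no overlap is counted.

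Naip6 stood out by size. Naip6 (ENSMUSG00000078942; mm10 chromosome 13, 100281121 to 100317674, minus strand), of the family that senses bacterial proteins for inflammasomes, was at 33.7 CPM in WT GW5074, 0.322 CPM (3 UMIs) in KO and 33.4 CPM in WT DMSO, a log2 ratio of -6.70 (-8.98 to -5.13) for KO over WT DMSO. It was as low in KO Krt19-state cells (0.368 CPM) and monocyte-derived cells (0.355 CPM). Its near copies on the same chromosome did not pass the rule: Naip5 was at 65, 55 and 70.9 CPM and Naip2 at 115, 109 and 104 CPM, with reads between them open to misassignment. Clec1b (ENSMUSG00000030159; mm10 chromosome 6, 129397297 to 129409335, plus strand), the lectin receptor CLEC-2 and a neighbour of Clec7a, was at 12 CPM in WT GW5074, 52.6 CPM in KO and 11.8 CPM in WT DMSO, a log2 ratio of 2.16 (1.85 to 2.49). Olr1, the receptor for oxidised low-density lipoprotein in the same cluster, was at 342, 585 and 350 CPM. Clec1a, a further lectin gene there, singled out after its values were seen, was at 3.98, 35.3 and 3.53 CPM. In each of these 4 genes the WT libraries lay close together and KO apart.

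Arg1 was lower in KO as well, at 73.3 CPM (67.9 to 79.1) against 309 CPM, a log2 ratio of -2.07 (-2.20 to -1.95) and of -1.63 without cells of other-lineage UMIs. In Krt19-state and monocyte-derived KO cells it was at 16.5 and 87.6 CPM. Nav2, neuron navigator 2, was at 106 against 250 CPM in KO and WT DMSO, with 234 CPM in WT GW5074, and Crtc2, a coactivator of CREB, at 12.7 against 30.5 CPM, with 26.3 CPM in WT GW5074. Nav2 passed the rule in all 10 alternative settings and Crtc2 in 9, counting those of another minimum level, which repeat the main ratio. The ubiquitin ligase gene Neurl3 was at 25.1 against 57.4 CPM, the receptor gene Relt at 22.8 against 50.7 CPM and Itgam at 39.4 against 87.2 CPM. Egr1, Ier3, Id1, the lysolipid receptor Gpr132 and lamin B1 (Lmnb1) had log2 ratios of -1.51 to -1.06. All of these but Arg1 and Nav2 were more abundant outside the class in WT DMSO. Without cells of other-lineage UMIs, 8 of the 12 lower genes (Egr1, Ier3, Crtc2, Relt, Id1, Itgam, Gpr132 and Lmnb1) fell short, at -0.66 to -0.15. Crtc2 (-0.66), Relt (-0.63) and Gpr132 (-0.63) were still past 1.5-fold without those cells, and fell short because their intervals included 1.

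Of the 12 higher genes named, 11 passed the rule without cells of other-lineage UMIs, all but Kcnip4. That setting kept 809 KO and 185 WT DMSO members. Manf, a secreted factor of endoplasmic reticulum stress, was at 161 CPM in KO and 82.8 CPM in WT DMSO (log2 ratio 0.96), Creld2, a second such gene, at 52.2 against 28.5 CPM, and Hspa8, the constitutive cytosolic chaperone, at 1154 against 631 CPM. Pnpla2, a triglyceride lipase, was at 75.4 against 37.9 CPM, and the tubulin-associated Tppp3 at 129 against 65.1 CPM. Innate receptors were among them, with Tlr8, a sensor of single-stranded RNA, at 55.2 against 29.3 CPM and Fpr1 at 97.5 against 53.2 CPM. The metalloprotease Mmp19 was at 234 against 126 CPM and Gstm1 at 168 against 87.1 CPM. Cd2 and Kcnip4, at 43.7 against 21.4 CPM and 271 against 139 CPM, were higher here too. Krt19-state cells, which hold more of both, made up 7.98% of KO and 1.29% of WT DMSO cells. Their part in these values was not tested.

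Of 21 endoplasmic reticulum stress genes 4 were higher in KO (Manf, Creld2, the luminal chaperone Hspa5 at 681 against 391 CPM and Sdf2l1 at 106 against 70.3 CPM) and 1, the translation-controlled factor Atf4, lower at 71.2 against 115 CPM. The median log2 ratio was 0.25, against -0.07 for all genes. Of 17 heat shock and cold shock genes 3 were higher (Hspa8, Hsph1 at 34.8 against 21.3 CPM and Dnaja1 at 86.1 against 56.7 CPM) and the 2 cold-induced members lower, Cirbp at 6.12 against 34.4 CPM and Rbm3 at 19.4 against 40.5 CPM. Cirbp was at 11.6 CPM in WT GW5074, so it was lower in both libraries. Identity genes were higher in 6 of 30 cases and lower in 0. The selecting genes among these 30 did not pass. The higher ones were Cav1, at 65.9 against 41.2 CPM, Cidec, Olr1, Cd2, Atp6v0d2 and Serpinb1a. Without cells of other-lineage UMIs, 3 identity genes were higher and 1 lower, and no caveola gene, Cav1 included, passed the rule. Among lineage transcription factors Pparg (249 against 152 CPM) and Cebpb (429 against 273 CPM) were higher and Bhlhe40 (92.7 against 155 CPM), Batf3 and Klf2 lower. The Fc receptor Fcgr3 was at 444 against 276 CPM.

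Alternative activation genes were lower in 3 of 14 cases in KO: Arg1, the resistin-like Retnla (2.68 against 11.8 CPM, with 20.5 CPM in WT GW5074) and the chemokine Ccl22 (19.4 against 37.6 CPM). Of 33 Dectin-1 signalling genes 1 was lower, the kinase Prkcd at 172 against 283 CPM, a share no larger than the 3.7% of all genes, and Egr2 was at 18.6 against 27.8 CPM without passing the rule. Immediate early genes were lower in 5 of 25 cases (median -0.29) and MEK-ERK targets in 3 of 14 (median -0.33), and 1 of each list was lower without cells of other-lineage UMIs, at medians of -0.25 and -0.29. Type I interferon genes were higher in 4 of 41 cases and lower in 1 (median 0.16), with Oas1a at 15.2 against 8.47 CPM and Irf7 at 15.2 against 9.76 CPM, both low. Of 18 MHC class I genes 1 was lower, H2-T23 at 96.2 against 191 CPM. Of 22 glycolysis genes Gapdh (701 against 458 CPM) was higher and the lactate exporter Slc16a3 (20.3 against 40.9 CPM) lower. Over all genes 1.43% were higher and 3.7% lower, so single members of the MHC class I and glycolysis lists do not stand out.

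**Figure D5:**
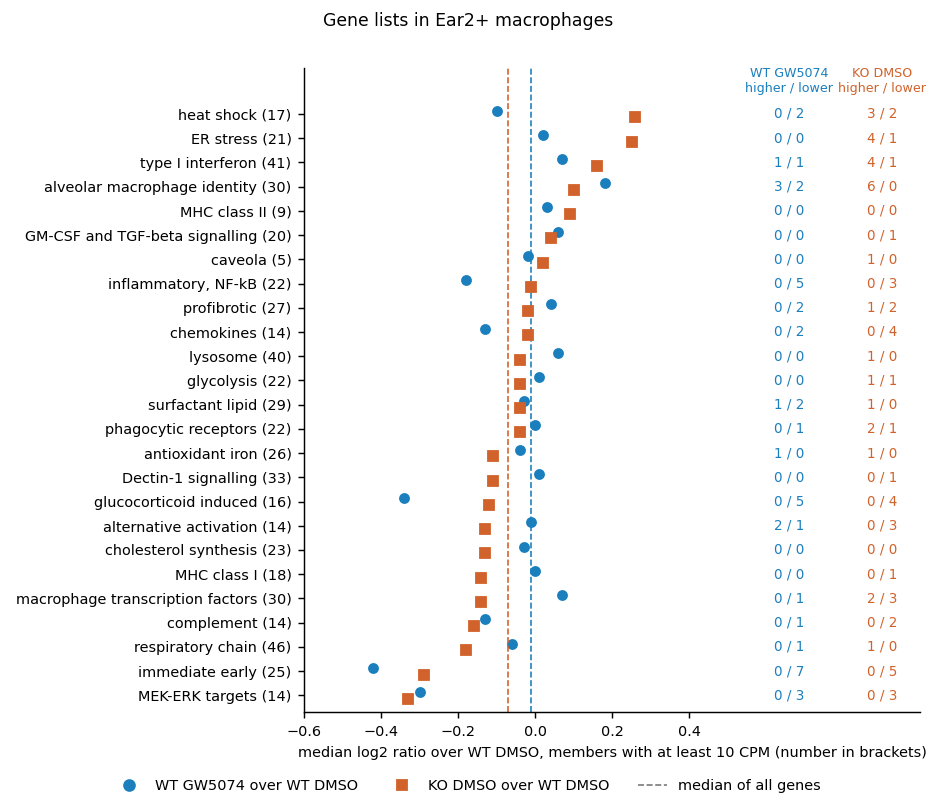
Median log2 ratio over WT DMSO of each gene list in Ear2+ macrophages, for WT GW5074 and KO, with the number of members higher and lower by the rule at the right. Dashed lines mark the medians of all genes (-0.01 for WT GW5074 and -0.07 for KO). Immediate early genes, glucocorticoid-induced genes and MEK-ERK targets lay lowest for WT GW5074, MEK-ERK targets and immediate early genes lowest for KO, and heat shock and endoplasmic reticulum stress genes highest in KO.

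Set directly against WT GW5074, a contrast without the WT DMSO library and its neutrophil transcripts, KO had 57 of 8127 genes (0.701%) higher and 165 (2.03%) lower, or 78 and 101 under median-of-ratios scaling. The 15 neutrophil genes summed to 418 CPM in KO and 452 CPM in WT GW5074. Clec1b (2.13), Manf (0.95), Hsph1 (0.91) and Tlr8 (0.90) were higher in KO on the log2 scale, as against WT DMSO. Cxcl2, at 39.1 against 11.8 CPM (log2 ratio 1.72), and Fkbp5, at 102 against 48.8 CPM (1.07), were higher as well, and WT DMSO had 31.2 and 104 CPM of them. The 6 higher genes passed the rule in all 10 alternative settings, counting those of another minimum level, which repeat the main ratio. Naip6 (-6.71), Nav2 (-1.15), Crtc2 (-1.05), the elongation factor partner Eaf1 (13.2 against 26.9 CPM), Egr2 (18.6 against 35.8 CPM) and Slc16a3 (20.3 against 38 CPM) were lower in KO. Inflammatory genes were higher in 6 of 22 cases and lower in 1, and the higher ones were Cxcl2, Ccl3, Nfkbiz, Tnfaip3, the endotoxin co-receptor Cd14 and Il18 (205 against 134 CPM). Fos (212 against 129 CPM), Fosb and Btg2 of the immediate early list were higher and Egr2 lower. Of the chemokine list, the fractalkine receptor Cx3cr1 (20.3 against 42.2 CPM) and Ccl22 were lower, and of the profibrotic list Tgfbi (771 against 1205 CPM), Pdgfb and Thbs1. Arg1, at 73.3 CPM in KO and 88.9 CPM in WT GW5074, did not pass the rule.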

How the data were processed

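Each group's deposited matrix holds unnormalised UMI counts for every gene in every cell barcode. The submitters' processing notes name Cell Ranger 2.1.1 and the build mm10. The labels' protocols name a SeekOne chip and sequencing of 3' transcript ends, and another label 10x Genomics.

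A cell was kept if it had 200 genes or more and no more than 20% mitochondrial UMIs (17792 WT GW5074, 11642 KO and 13454 WT DMSO cells of 17809, 11678 and 13504 barcodes). Doublets were not removed. UMIs were summed over each class and library and scaled to CPM. Levels carry exact Poisson intervals, shares exact Clopper-Pearson intervals and ratios exact conditional binomial intervals, all at 95%. A count of 0 was set to a floor of 3 counts for ratios. T cells had Lyz2 below 0.5% and at least 2 UMIs of T cell genes. Named genes had a mean of at least 20 CPM and at least 100 UMIs over both libraries. The 12 highest and 12 lowest past the rule were named against WT DMSO, the 6 highest and lowest for KO over WT GW5074, and 10 each way between classes. From lists, up to 2 genes each way were eligible, and the further list members, as well as Naip5 and Naip2, were chosen after their values were seen. Mitochondrial, ribosomal protein, haemoglobin, immunoglobulin, T cell receptor, predicted and Y-linked genes, Xist, Tsix, Clec7a, the selecting genes and other cell types' markers were left out of the named genes. The members and gene lists were chosen with earlier results of these data known. Positions came from GENCODE M21 (GRCm38), which held 99.8% of gene identifiers and lists Clec7a as a polymorphic pseudogene. Ratios were checked on simulated counts. Python 3.11.15, numpy 2.4.6, scipy 1.17.1, pandas 2.3.3 and matplotlib 3.10.9 were used.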

Additional observations from a re-analysis of the deposited data

How the results depend on the processing

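The limits are 1 library per group, doublets left in and neutrophil transcripts in the WT DMSO library, so intervals cover counting error only. No paired analysis was possible because each group has 1 library. Over 10 alternatives, 925 of 979 checks on 100 named results passed the size rule, 54 fell short, and 60 results passed in all. The alternatives with no minimum level and with a mean of at least 50 CPM repeat the main ratios. Their checks are counted but could not fall short. A further 21 checks gave no value because a count was 0. Of the shortfalls 36 came without cells holding other-lineage UMIs and 12 under thinning. The results that reversed were Lsm3 for WT GW5074 over WT DMSO under thinning (-0.06) and, without other-lineage UMIs, Cxcl2 (0.60) and Id1 (0.63). Their cause was not tested.

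Counts are given as higher and lower, in the order WT GW5074 over WT DMSO, KO over WT DMSO, KO over WT GW5074. They were 10 and 12, 49 and 59, 23 and 25 at a mean of at least 50 CPM, and 196 and 423, 325 and 901, 269 and 481 with no minimum, as fewer or more genes were tested. Without other-lineage UMIs they were 115 and 177, 218 and 512, 160 and 380. Thinning gave 152 and 173 for the first, 227 higher for the second, and 193 and 378 for the third. Without class cells holding 2 or more monocyte-derived UMIs, an alternative chosen after seeing the data, they were 93 and 125, 197 and 488, 105 and 328. Median-of-ratios scaling gave 176 and 193 for KO over WT DMSO and 101 lower for KO over WT GW5074, and TMM 198 lower for KO over WT DMSO. Scaling moved the median of all genes by at most 0.08.

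Against Krt19-state cells the counts were 61 and 119 at 50 CPM, 15 and 40 under thinning, and 47 and 95 without other-lineage UMIs. Against monocyte-derived cells they were 102 and 70, and 142 and 102 without other-lineage UMIs. Without class cells holding 2 or more monocyte-derived UMIs, 397 were higher.

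The log2 ratios of the class's share, WT GW5074 and KO over WT DMSO, were 0.33 and 0.70 with at least 3 resident UMIs. They were 0.45 and 0.65 with a minimum of 500 genes and a mitochondrial maximum of 10%. Without other-lineage UMIs they were 2.48 and 2.34, but there only the members were filtered, not the denominator. They stood at 1361 of 17792 WT GW5074, 809 of 11642 KO and 185 of 13454 WT DMSO kept cells, so these are not shares among cells without such UMIs. Without class cells holding 2 or more monocyte-derived UMIs they were 0.74 and 0.97. Over cells with Lyz2 they were reversed, at -0.43 and -0.19. Thinning gave 0.69 for KO.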
